A study of Mus musculus with 2 samples.

Results

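Keratin genes were described in the embryonic facial prominence, the tissue that forms the mouse face. The members are the protein-coding genes whose symbol is Krt followed by digits alone, as annotated in GENCODE release M21, and there are 49 of them among 22028 protein-coding genes. Krt6a, Krt6b, Krt33a and Krt33b carry a letter after the number and fall outside this rule, as do the keratin-associated protein genes (Krtap) and Krt74, which is annotated as a pseudogene. PolyA plus RNA-seq was made from 2 pools of healthy B6NCrl embryos at 12.5 days, each of mixed sex and each entered with 10 ng of RNA. Replicate 2 pooled 88 embryos and replicate 1 pooled 120 embryos. Both pools cite the same donor record. The labels give 1 tissue, 1 age and no treatment or genotype, so no condition is compared, and the contrast between the pools sets 1 library against 1 library. With 2 libraries an exact 2-sided sign-flip test cannot go below p = 0.5, so levels carry no p-value.

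Keratins are the intermediate filament proteins of epithelial cells. A type I keratin pairs with a type II keratin, and the pair assembles into filaments that anchor at desmosomes and hemidesmosomes and give an epithelium its mechanical strength. Which pair a cell makes follows its layer and its state: Krt5 with Krt14 in the basal layer of stratified epithelia, Krt8 with Krt18 in simple epithelia, Krt1 with Krt10 in the differentiating layers of the epidermis, and a further set in hair and nail. The embryonic surface ectoderm also carries a transient outer layer, the periderm, in which Krt17 and simple keratins are known to be made.

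The libraries held 39819334 and 27887968 expected counts on genes in replicates 2 and 1. Keratin genes took 14845 expected counts in replicate 2 and 10499 in replicate 1, which is 0.0373% and 0.0376% of those counts. Of the markers listed, 5 of 5 for facial mesenchyme and 4 of 4 for epithelium were detected, against 60.7% of all protein-coding genes. Epcam, an epithelial adhesion molecule, had 70.2 and 69.2 TPM in replicates 2 and 1. Msx1, a mesenchymal transcription factor, had 308 and 319 TPM. All markers listed for lens, inner ear, pituitary and oral roof, neuron, muscle, endothelium and macrophage were detected too. Detection alone therefore does not mark the labelled tissue. TPM is a length-corrected share of all transcripts, scaled to the same total in each library. Since this is bulk tissue, fewer cells of a type and less RNA per cell cannot be told apart. Lens markers summed to 345.5 TPM in replicate 2 against 140.7 TPM in replicate 1, and the inner ear marker Oc90 stood at 17.9 TPM against 40.9 TPM, so these markers were at unequal levels in the pools.

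A keratin was called detected where its TPM reached 1 in each library. By that rule 10 of 49 keratins were detected (20.4%), against 60.7% of all protein-coding genes. All 49 summed to 361 TPM in replicate 2 and 364 TPM in replicate 1, a mean of 363 ± 2.11 TPM (SD, n = 2). The detected members were 3 of 3 basal keratins, 4 of 5 simple keratins, 1 of 3 keratins listed for the periderm and mucosa, 2 of 8 suprabasal keratins and 0 of 20 hair keratins. A further 10 members carry no class here, and 0 of them were detected. At the other end, 12 of 49 keratins had 0 counts in both libraries (24.5%), against 18.1% of protein-coding genes.

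**Figure D1:**
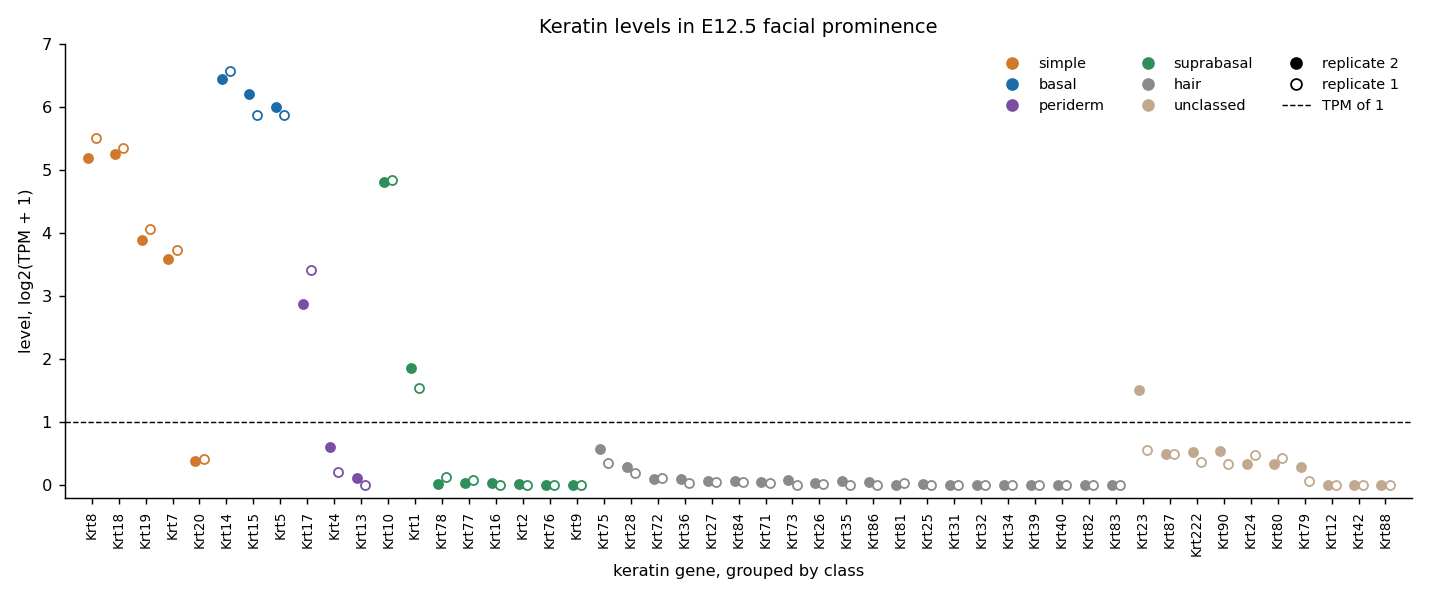
Level of each of the 49 keratin genes as log2(TPM + 1), grouped and coloured by class, with filled points for replicate 2, open points for replicate 1 and a dashed line at a TPM of 1. The 3 basal keratins are the highest, 10 genes lie above the line in both libraries, and the hair keratins all lie below it.

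The basal keratins were the most abundant class. Krt14, the type I basal keratin, had 85.8 TPM in replicate 2 and 94.1 TPM in replicate 1 (89.9 ± 5.84, SD, n = 2), the highest gene level of any keratin in each library. Krt15, a further type I keratin of basal cells, had 72.8 TPM in replicate 2 and 57.6 TPM in replicate 1 (65.2 ± 10.7, SD, n = 2). Krt5, the type II partner of both, had 63.0 TPM in replicate 2 and 57.5 TPM in replicate 1 (60.3 ± 3.90, SD, n = 2). Krt15 was above Krt5 within each library, by little in replicate 1, and their ranges overlapped. Krt14 was above both in each library as a gene, but not by its coding transcript: Krt14-201 alone had 56.9 TPM in replicate 2, below Krt15 and Krt5, and 69.0 TPM in replicate 1, above both. Basal keratins made up 61.3% of keratin TPM in replicate 2 and 57.4% in replicate 1.

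The simple keratins came next. Krt18, the type I member of the simple epithelial pair, had 37.1 TPM in replicate 2 and 39.8 TPM in replicate 1 (38.4 ± 1.89, SD, n = 2). Its type II partner Krt8 had 35.6 TPM in replicate 2 and 44.4 TPM in replicate 1 (40.0 ± 6.19, SD, n = 2). The ranges of Krt18 and Krt8 overlapped, and the log2 ratio of Krt18 over Krt8 was 0.06 in replicate 2 and -0.16 in replicate 1, so neither was higher in both libraries. Krt19, a short type I keratin with almost no tail domain, had 13.8 and 15.7 TPM (14.7 ± 1.34, SD, n = 2), and Krt7, a type II keratin of ducts and simple epithelia, had 11.1 and 12.3 TPM (11.7 ± 0.898, SD, n = 2), in replicates 2 and 1. These gene TPM ranges did not overlap, with Krt19 above Krt7 in each library. Counts, not divided by length, ran the other way, at 447 and 346 for Krt19 and 529 and 368 for Krt7 in replicates 2 and 1. Krt19-201 alone had 9.47 and 9.86 TPM, below Krt7 as a gene. The order thus depends on length correction and on which transcripts are counted. Krt20, known from intestinal epithelium, stayed under the threshold at 0.31 and 0.33 TPM, from 15 and 11 counts.

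Simple keratins summed to 97.9 and 112 TPM in replicates 2 and 1, and basal keratins to 221.6 and 209 TPM. The log2 ratio of simple over basal keratins was -1.18 in replicate 2 and -0.90 in replicate 1 (-1.04 ± 0.20, SD, n = 2). The simple class was therefore below the basal class in both libraries. Some simple keratins are also known from the periderm, and bulk values do not place a transcript in a cell layer.

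Of the keratins of the periderm and mucosa, Krt17 was detected. Krt17, a type I keratin of embryonic ectoderm, periderm and skin appendages, had 6.32 TPM in replicate 2 and 9.71 TPM in replicate 1 (8.02 ± 2.40, SD, n = 2). Krt4 and Krt13, the pair of stratified mucosal epithelia such as the later tongue and oesophagus, were at or near 0. Krt4 had 0.53 TPM from 28 counts in replicate 2 and 0.16 TPM from 6 counts in replicate 1, and Krt13 had 1 count in replicate 2 and 0 in replicate 1.

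The suprabasal class was led by a single gene. Krt10, the type I keratin of differentiating epidermis, had 27.1 TPM in replicate 2 and 27.7 TPM in replicate 1 (27.4 ± 0.445, SD, n = 2), while its type II partner Krt1 had 2.62 and 1.92 TPM (2.27 ± 0.495, SD, n = 2) in replicates 2 and 1. The log2 ratio of Krt10 over Krt1 was 3.37 in replicate 2 and 3.85 in replicate 1, which is 10.3-fold and 14.4-fold. With the older annotation release M4 it was 4.50-fold in replicate 2 and 6.29-fold in replicate 1, and with the full-length Krt10 transcript alone 1.63-fold and 2.61-fold. Krt10 was thus above its partner in both libraries under each of these, by an amount set by which Krt10 transcripts are counted. The other 6 suprabasal members were under a TPM of 1 in both libraries. Krt78 and Krt77 had at most 0.10 TPM. Krt2, of the upper epidermis, had 1 count in replicate 2 and 0 in replicate 1. Krt9 (palm and sole skin) and Krt76 (palate and gingiva) had 0 counts in both.

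Hair keratins as a class summed to 1.21 TPM in replicate 2 and 0.700 TPM in replicate 1, from 72.4 and 28.2 counts. The highest was Krt75, a type II keratin of the hair follicle's companion layer, with 0.50 TPM in replicate 2 and 0.28 TPM in replicate 1. Krt28, Krt72 and Krt36 followed, each at most 0.23 TPM in either library. A total of 7 of 20 hair keratins had 0 counts in both libraries, namely Krt31, Krt32, Krt34, Krt39, Krt40, Krt82 and Krt83. The keratin-associated proteins, which crosslink keratins in the hair shaft, were at 0 counts in both libraries for 53 of 57 genes, against 18.1% of protein-coding genes. Of these 57 genes, 0 were detected, against 60.7% of all protein-coding genes. Over the 12 keratins with 0 counts in both, a limit of 3 counts allows a level of 0.0462 to 0.143 TPM in replicate 2 and of 0.0656 to 0.203 TPM in replicate 1, depending on gene length and covering counting error only.

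Just inside the threshold stood Krt1, and just outside it stood Krt23, a type I keratin with no class here, with 1.85 TPM from 71 counts in replicate 2 and 0.48 TPM from 13 counts in replicate 1. Krt23 passed a TPM of 1 in replicate 2 and not in replicate 1. Krt87, Krt222 and Krt90, also without a class, followed with 0.42, 0.45 and 0.46 TPM in replicate 2 and 0.42, 0.30 and 0.27 TPM in replicate 1.

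Type I keratins outweighed type II keratins. The 26 type I genes, 6 of them detected, summed to 246 TPM in both libraries, and the 23 type II genes, 4 of them detected, summed to 115 and 118 TPM in replicates 2 and 1. The log2 ratio of type I over type II was 1.10 in replicate 2 and 1.06 in replicate 1 (1.08 ± 0.03, SD, n = 2), or 2.14-fold and 2.09-fold. The excess was not shared by all classes. Basal type I keratins (Krt14 and Krt15) summed to 159 TPM in replicate 2 and 152 TPM in replicate 1, against 63.0 and 57.5 TPM for Krt5, which is 2.52-fold in replicate 2 and 2.64-fold in replicate 1. Krt14 alone was 1.36-fold over Krt5 in replicate 2 and 1.64-fold in replicate 1, but with its coding transcript Krt14-201 only, the ratio was 0.903-fold in replicate 2 and 1.20-fold in replicate 1. With that transcript only, basal type I keratins were 2.06-fold and 2.20-fold over Krt5 in replicates 2 and 1. Simple type I keratins (Krt18, Krt19 and Krt20) summed to 51.2 and 55.8 TPM, against 46.7 and 56.7 TPM for the simple type II keratins Krt8 and Krt7, in replicates 2 and 1, a ratio of 1.10-fold in replicate 2 and 0.983-fold in replicate 1. The simple keratins were thus near balance and the basal and suprabasal keratins were not. These are transcript levels, and the files hold no protein values.

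**Figure D2:**
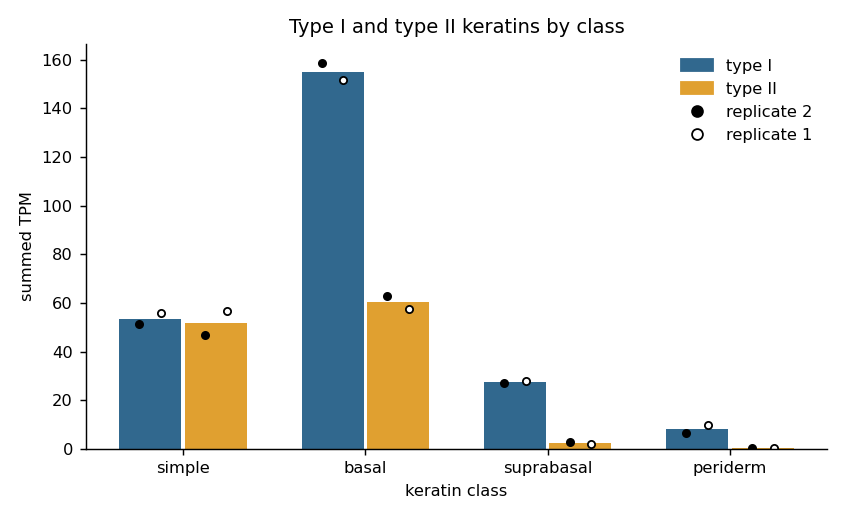
Summed TPM of type I (blue) and type II (orange) keratins in 4 classes, with bars at the mean of both libraries, filled points for replicate 2 and open points for replicate 1. Type I exceeds type II in the basal, suprabasal and periderm classes in both libraries, and the simple classes lie close together.

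The level of Krt10 depended on the annotation more than that of any other keratin. With release M21 it had 27.1 and 27.7 TPM in replicates 2 and 1, and with the older release M4 it had 9.89 and 10.8 TPM, a log2 ratio of M21 over M4 of 1.37 in replicate 2 and 1.29 in replicate 1. The counts hardly differed, at 496 and 376 with M21 against 489 and 375 with M4. Krt10 was the only member past a log2 ratio of 1 in size in both libraries between releases, 1 of 49 keratins (2.04%), against 1.32% of the protein-coding genes found in both releases. Release M21 lists 2 protein-coding transcripts. Krt10-201 has 8 exons and 2094 bases, and Krt10-202 has 2 exons and 557 bases from the 3′ end of the gene and is not in the M4 tables. Krt10-202 took 84.2% of Krt10 abundance in replicate 2 and 81.9% in replicate 1, at 22.8 and 22.7 TPM, from 273 and 192 counts. Krt10-201 had 4.27 and 5.01 TPM from 223 and 184 counts in replicates 2 and 1. A similar number of reads spread over a shorter transcript gives a higher TPM. Of the 557 bases of Krt10-202, 537 (96.4%) also lie in Krt10-201. The remaining 20 bases, at chr11:99385911-99385930 on mm10, extend an exon at its 3′ side, and they are what sets the short transcript apart in the letters. Both transcripts are shown across that junction, 5′ to 3′ on the minus strand within chr11:99385625-99385966, with the extra bases in capitals.
Krt10-201: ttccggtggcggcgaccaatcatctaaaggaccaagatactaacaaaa
Krt10-202: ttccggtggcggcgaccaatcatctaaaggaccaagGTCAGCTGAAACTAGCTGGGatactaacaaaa
How many reads crossed these bases is not in the tables, so the split of Krt10 reads between the transcripts was not tested here. An antisense gene, Gm11940 (chr11:99387340-99387897, plus strand), overlaps Krt10 and had 2.28 TPM in replicate 2 and 3.24 TPM in replicate 1, from 19 counts in each.

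**Figure D3:**
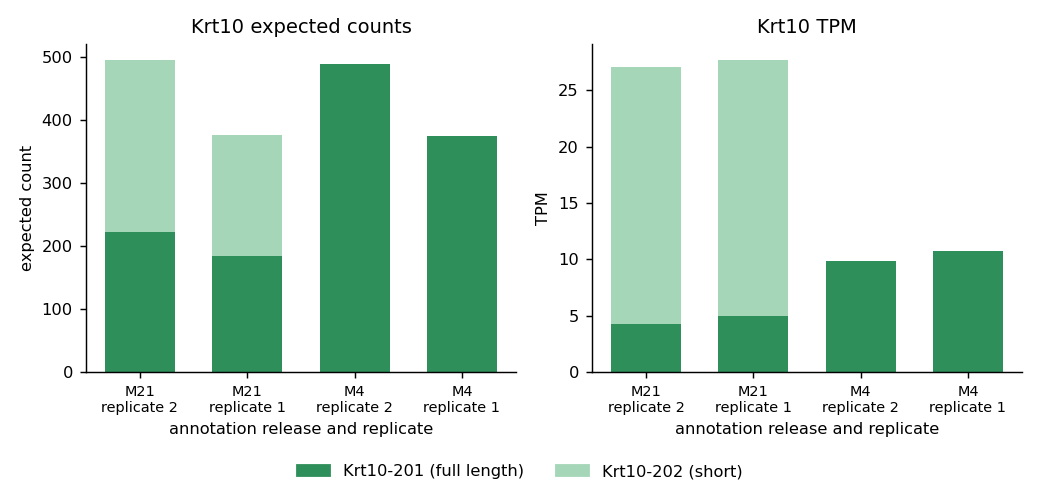
Expected counts (left) and TPM (right) of Krt10 in each library with release M21 and release M4, with the full-length transcript in dark green and the short transcript in light green. Counts are alike between releases, while TPM with M21 is above TPM with M4, and the short transcript carries 22.8 and 22.7 TPM of it in replicates 2 and 1.

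Of the 10 detected keratins, 5 had all their M21 abundance on 1 transcript in both libraries. For Krt5, Krt8, Krt17 and Krt18 this was fixed in advance, since M21 lists 1 transcript of each. Krt15 has 2 transcripts, and Krt15-201 took 100% in both libraries. Krt14 was divided between Krt14-201, with 66.3% in replicate 2 and 73.4% in replicate 1, and Krt14-202, a transcript annotated without a coding sequence, with 33.7% and 26.6%. Krt19-201 had 68.8% and 63.0% of Krt19, and Krt1-201 had 77.4% and 81.2% of Krt1, in replicates 2 and 1. Krt7 was spread over 5 transcripts, the leading one with 35.4% in replicate 2 and 31.5% in replicate 1.

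Some keratins share a long identical stretch with another gene or pseudogene. Reads that lie within such a stretch cannot be assigned to 1 gene with certainty. Over the detected keratins the longest shared run went from 22 bases (Krt18 with Krt14) to 299 bases (Krt8 with Krt8-ps). An expected count that was not whole in a library, the mark of reads divided between features, was found for 3 of 10 detected keratins (Krt14, Krt5 and Krt8), against 33.5% of detected protein-coding genes. For Krt14 and Krt16 the sum was whole, at 3153 in replicate 2 and 2507 in replicate 1, with 1.04 counts of it given to Krt16 in replicate 2 and 0 in replicate 1. Krt8 shares a run of 299 bases with its processed pseudogene Krt8-ps on chromosome 7, which received 0 counts in replicate 2 and 4.45 in replicate 1. Krt8 and Krt8-ps summed to a whole 1525 in replicate 1 but to 1730.95 in replicate 2. There the sum was whole, at 1737, only with Gm36026, a lincRNA that overlaps Krt8 on the other strand and had 6.05 counts. The longest identical run between Krt14 and Krt16 (134 bases) is shown in capitals, with 10 bases of each gene around it, because it marks where reads of a basal keratin and of a wound- and stress-associated keratin are the same. The lines give the strand of the transcript, and on mm10 the runs lie at chr11:100207017-100207150 (Krt14) and chr11:100248476-100248609 (Krt16), both on the minus strand and both coding.
Krt14: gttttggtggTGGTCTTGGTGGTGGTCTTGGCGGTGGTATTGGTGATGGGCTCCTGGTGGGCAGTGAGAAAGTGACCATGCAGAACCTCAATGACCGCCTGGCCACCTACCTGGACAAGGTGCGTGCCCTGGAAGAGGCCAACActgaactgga
Krt16: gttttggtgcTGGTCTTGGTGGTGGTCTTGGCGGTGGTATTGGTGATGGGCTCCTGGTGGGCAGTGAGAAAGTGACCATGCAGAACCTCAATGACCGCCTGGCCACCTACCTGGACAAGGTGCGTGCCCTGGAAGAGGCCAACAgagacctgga
Krt6a, a type II keratin of wounded skin and appendages, had 1.12 TPM in replicate 2 and 1.25 TPM in replicate 1, from 63.9 and 50.3 counts, and Krt6b had 0 counts in both. Of the 4 keratins left out by the symbol rule, 1 was thus detected, against 60.7% of all protein-coding genes. The hair keratins Krt33b and Krt33a had 0.31 and 0.12 TPM in replicate 2 and 0.18 and 0.03 TPM in replicate 1. The Krt16 value at this level is uncertain, since a few reads assigned to Krt14 could be its own. The Krt6a value is uncertain too: it lies near the threshold, its counts were not whole, and it shares a run of 140 bases with Krt5.

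Keratin genes lie in a pair of clusters. Of the 49 members, 25 lie on chromosome 11 (mm10 positions 99232761 to 100269871, all on the minus strand) and 24 on chromosome 15 (101347444 to 102032027, 20 on the minus and 4 on the plus strand). All 25 on chromosome 11 are type I and all on chromosome 15 are type II except Krt18, which stands 23.7 kb from Krt8 at the end of that cluster. On chromosome 11, Krt15, Krt19, Krt14 and Krt17 lie at positions 19, 20, 22 and 24 of 25 in order along the chromosome, and Krt10 at position 7. Between Krt40 and Krt34 a gap of 494 kb holds keratin-associated protein genes, and the hair keratin members beside it were at or under 0.07 TPM. On chromosome 15, Krt7 is at position 2 of 24, Krt5 at 12, Krt1 at 17, Krt8 at 23 and Krt18 at 24. Direct neighbours could differ widely: Krt9 and Krt16 flank Krt14, and Krt9 had 0 counts in both libraries and Krt16 at most 0.03 TPM.

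**Figure D4:**
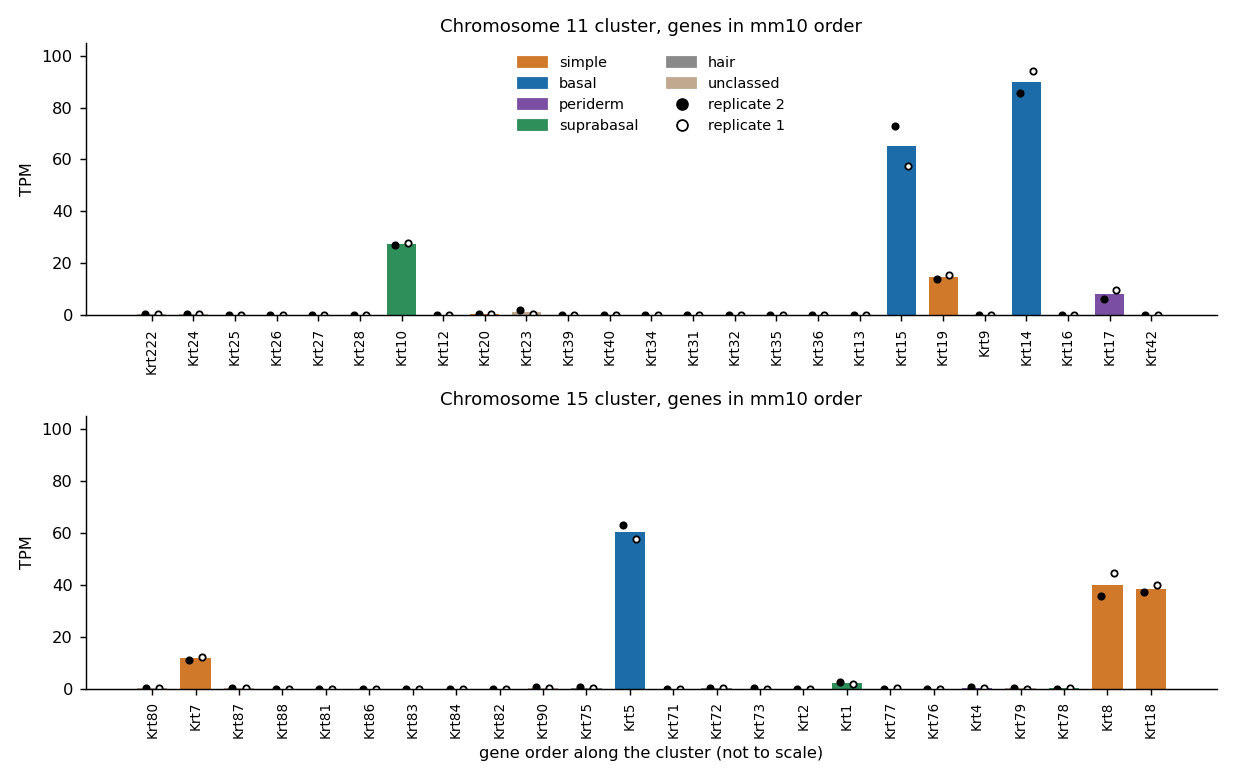
TPM of the keratin genes on chromosome 11 (top) and chromosome 15 (bottom) in their order along mm10, with bars at the mean of both libraries coloured by class, filled points for replicate 2 and open points for replicate 1. The axis gives rank and not distance, and the high bars stand among neighbours near 0.

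Promoter sequence was available for 35 of 49 keratins in 36 RefSeq entries (GRCm38.p6), among them 6 detected keratins. The letters TATAAA or ATAAAA, searched on the sense strand 45 to 15 bases upstream of the RefSeq start, where a TATA box stands, occurred in 20 of 36 keratin promoters (55.6%), against 3.20% of all 32851 promoters. On the other strand the same window held them in 0 of 36 keratin promoters, against 1.46% of all promoters. The share among detected keratins was 2 of 6 promoters and among undetected keratins 18 of 30. With a window of 100 bases, 22 of 36 keratin promoters (61.1%) held the letters, against 6.59% of all promoters. The AP-2 motif GCCNNNGGC, which reads the same on both strands, was in 7 of 36 keratin promoters (19.4%) over 300 bases, against 16.6% of all promoters. The 70 bases upstream of the start are shown, 5′ to 3′ in the direction of transcription with a match in capitals, for 4 detected keratins that differ in it: Krt10 (chr11:99389365-99389434, minus) and Krt5 (chr15:101712906-101712975, minus) have a match inside the window, Krt7 (chr15:101412333-101412402, plus) has one nearer to the start, and Krt18 (chr15:102028146-102028215, plus) has none in these bases.
Krt10: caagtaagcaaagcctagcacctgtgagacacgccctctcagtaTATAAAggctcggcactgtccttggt
Krt5: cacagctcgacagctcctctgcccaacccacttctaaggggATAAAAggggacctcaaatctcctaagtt
Krt7: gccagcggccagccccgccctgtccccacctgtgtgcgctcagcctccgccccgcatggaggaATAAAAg
Krt18: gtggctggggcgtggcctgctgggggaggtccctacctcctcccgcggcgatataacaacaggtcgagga
The windows follow the RefSeq starts, which can differ from the GENCODE starts. Among detected keratins without a match, the start of Krt14 is that of the shorter Krt14-202. That of Krt8 lies 140 bases and that of Krt18 lies 36 bases from the nearest GENCODE start. The 2 of 6 among detected keratins is therefore not a count over full-length starts. A match describes letters and does not show that a factor binds there.

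Between the pools, the summed keratin level was close, at 361 and 364 TPM in replicates 2 and 1, while single keratins differed in both directions. On the log2(TPM + 1) scale, which understates differences of low genes, 0 of 49 keratins were past a log2 ratio of 1 in size, against 0.182% of all protein-coding genes (0.0953% higher and 0.0863% lower in replicate 2). With a share this low, 0 of 49 does not set the keratins apart. With a pseudocount of 0.1 in place of 1, 3 of 49 keratins (6.12%) passed, all higher in replicate 2 and all undetected (Krt23, Krt4 and Krt79), against 3.38% of all protein-coding genes. The detected keratins had a median log2 ratio of replicate 2 over replicate 1 of -0.11, with 3 higher and 7 lower in replicate 2, against a median of 0.00 over all detected protein-coding genes. The exact 95% interval of the count ratio, scaled to gene counts, excluded 1 for 5 of 10 detected keratins, against 30% of detected protein-coding genes (14.6% above 1 and 15.4% below). Krt15 (ratio 1.25, interval 1.18 to 1.33) and Krt5 (1.09, 1.03 to 1.15) were higher in replicate 2. Krt14 (0.881, 0.835 to 0.928), Krt8 (0.797, 0.744 to 0.854) and Krt17 (0.646, 0.540 to 0.773) were lower. With TPM scaled on the spike-ins, the log2 ratio was 0.20 for Krt15, -0.00 for Krt5 and -0.27 for Krt14, so the higher value of Krt5 did not hold there. These intervals cover counting error only, and with 1 library per pool no spread between embryos or preparations can be set against them.

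By class, the count ratio of replicate 2 over replicate 1 was 1.05 (interval 1.02 to 1.09) for basal keratins, 0.873 (0.833 to 0.914) for simple keratins and 0.708 (0.596 to 0.842) for the periderm class. It was 0.975 (0.863 to 1.10) for suprabasal keratins, 1.80 (1.15 to 2.90) for hair keratins, 1.504 (1.16 to 1.95) for keratins without a class, and 0.990 (0.966 to 1.02) for all 49. Of the counts without a class, Krt23 alone held 71 of 193 in replicate 2 and 13 of 90 in replicate 1. The ratio for keratins without a class thus leans on 1 gene. Krt17 held 240 of the 269 periderm counts in replicate 2 and 260 of 266 in replicate 1. The periderm ratio is thus mostly that of Krt17, and Krt4 of that class was higher in replicate 2. The class ratios are scaled to gene counts. The log2 ratio of summed basal TPM was 0.08, below the 0.14 by which spike-in scaling lowers log2 ratios. The higher basal value thus depends on the scaling. Among the 39 undetected keratins, the scaled count was higher in replicate 2 for 20 (51.3%) and lower for 7 (17.9%), against 28% higher and 25.8% lower among all undetected protein-coding genes, from 316 keratin counts in replicate 2 and 144 in replicate 1. The count ratio interval excluded 1 for 2 of the 39, Krt23 at 3.83 (2.10 to 7.53) and Krt4 at 3.27 (1.33 to 9.65), both higher in replicate 2. That is 5.13% above 1, against 2.82% of undetected protein-coding genes, and 0 of 39 below 1, against 2.76%. Besides the lens and inner ear markers given above, other markers differed between the pools. Neuron markers (Tubb3 and Elavl3) summed to 120.1 TPM in replicate 2 against 164 TPM in replicate 1, and Lhx3, of the pituitary, had 1.02 against 2.44 TPM, both lower in replicate 2 as Krt17 and Krt8 were. The muscle markers Actc1 and Myog summed to 263 against 220.5 TPM, higher in replicate 2 as Krt15 was. Of the 5 facial mesenchyme markers, 3 were higher and 2 lower in replicate 2. Alx1 had 149.9 against 103 TPM, while Msx1 had 308 against 319 TPM and Prrx1 140 against 146 TPM. The part of those tissues in the keratin ratios was not tested.

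**Figure D5:**
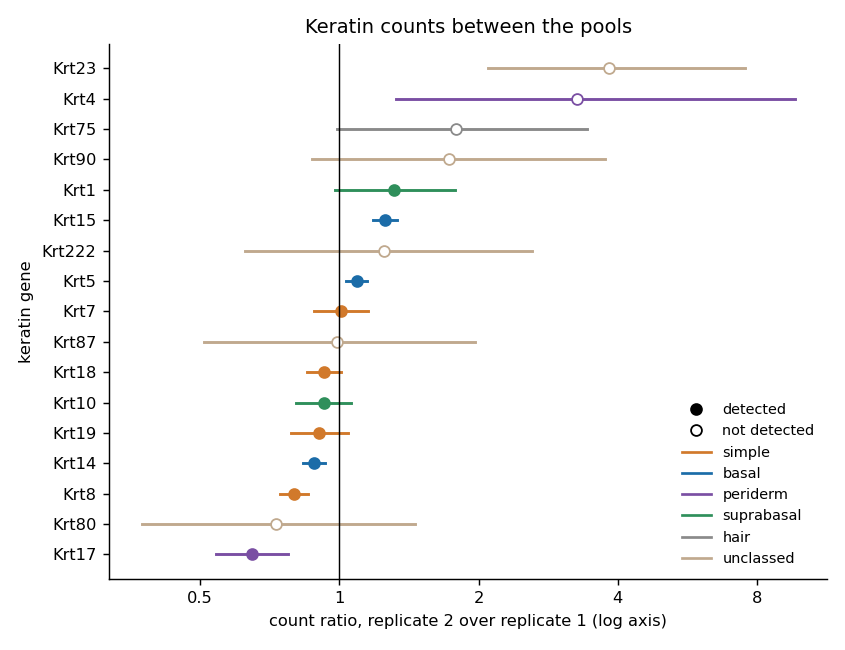
Ratio of gene-count-scaled expected counts in replicate 2 over replicate 1 for the keratins with at least 30 counts over both libraries, on a log axis, with exact 95% intervals, filled points for detected and open points for undetected members. Krt23 and Krt4 lie above 1 with wide intervals from few counts, and Krt17, Krt8 and Krt14 lie below 1.

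Lists of other genes of the keratin system were set beside all protein-coding genes, of which 60.7% were detected. Those detected genes had a median of 21.5 TPM. The attachment and assembly genes hold keratin filaments in place. All 14 of 14 attachment and assembly genes were detected, with a median of 5.98 TPM. The highest was Jup (plakoglobin, of desmosomes and adherens junctions) at 55.2 and 58.2 TPM in replicates 2 and 1. Itga6 (an integrin chain of hemidesmosomes) had 33.9 and 31.3 TPM, and Dst had 20.2 and 21.5 TPM. Plec (plectin, a linker of intermediate filaments) had 19.3 and 19.6 TPM. Bulk values do not place these transcripts in epithelial cells. Of the 12 regulators listed, 9 were detected, against the same 60.7%, with a median of 6.97 TPM. Trp63, the regulator of stratified epithelial fate, had 19.7 and 20.2 TPM, Klf4, of the skin barrier, had 13.9 and 11.3 TPM and Tfap2c, an AP-2 factor, had 12.1 and 12.6 TPM, in replicates 2 and 1. Hoxc13 and Foxn1, factors of the hair shaft, had 0.15 and 0.14 TPM in replicate 2 and 0.23 and 0.07 TPM in replicate 1.

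The cornified envelope genes, which seal the outermost layer, were detected in 2 of 11 cases, against 60.7% of all protein-coding genes. These were Tgm1 (a crosslinking transglutaminase) at 1.36 and 1.26 TPM and Lor (loricrin) at 1.09 and 1.45 TPM in replicates 2 and 1. Sbsn and Krtdap stood at 0.83 and 0.80 TPM in replicate 2 and at 1.06 and 0.86 TPM in replicate 1, while Ivl (involucrin) had 0 and 1 counts and Flg (filaggrin) 2 and 0 counts in replicates 2 and 1. Of 15 other intermediate filament genes, 13 were detected, against the same 60.7%, with a median of 33.9 TPM. Vim (vimentin, the mesenchymal filament) had 595 and 590.1 TPM in replicates 2 and 1, above the sum of all 49 keratins in each library. Lmnb1, of the nuclear lamina, had 142 and 137 TPM, and the neurofilaments Nefl and Nefm had 87.0 and 78.1 TPM in replicate 2 and 114 and 103 TPM in replicate 1. No gene of the attachment, regulator, cornified envelope and other filament lists was past a log2 ratio of 1 in size between the pools, against 0.182% of all protein-coding genes.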

How the data were processed

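Both samples are polyA plus libraries primed with oligo-dT, fragmented by Nextera tagmentation and spiked with ERCC RNAs, per the labels. The deposited tables are on mm10, with GENCODE release M21 and again release M4. The aligner, quantifier and strand setting were not given in the sources used here. Antisense or overlapping genes cannot therefore be separated. Per the file headers, the deposited gene tables hold an expected count, TPM (maximum-likelihood and posterior mean) and FPKM, while the deposited tables of transcripts add each transcript's percent of its gene. TPM was used for levels, expected counts for depth and intervals, and FPKM for 1 alternative.

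All 55536 gene IDs matched GENCODE M21. Spike-ins took 3.10% and 2.85% of the 41092194 and 28705073 expected counts in replicates 2 and 1 and stayed out of library sizes. Levels are mean ± SD over 2 libraries from separate pools. The replicates were compared by log2 of TPM with a pseudocount of 1, over all protein-coding genes, without p-values. Count ratios of rounded expected counts, scaled by gene counts, carry exact conditional (Clopper-Pearson) 95% intervals. These intervals and the limit of 3 counts cover counting error only, since amplified reads are not independent molecules. The procedure was tested on simulated data.

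Members, classes and lists were chosen with earlier results of these data known. All members could be named, each detected one with its values and up to 4 undetected ones per class, as could the 4 highest members of the other lists and up to 4 under a TPM of 1 in both libraries. A gene and a sequence that these rules take are not reported here. Genes that overlap or copy a detected keratin could also be named. The alternatives were the annotation release, the abundance estimate, the unit, length correction, the detection minimum, the pseudocount, the scaling (TMM or spike-ins) and leaving out a replicate. The versions were Python 3.11.15, pandas 2.3.3, NumPy 2.4.6, SciPy 1.17.1, matplotlib 3.10.9, R 4.3.3 and, for TMM factors alone, edgeR 4.0.16.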

Additional observations from a re-analysis of the deposited data

How the results depend on the processing

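No paired analysis was possible because both libraries belong to 1 group and no groups share replicate numbers. The count of 10 detected keratins became 18 with a minimum of 10 counts in both libraries. The summed keratin level of 363 TPM was 369 TPM with release M4, 356 TPM with posterior mean TPM 340.1 TPM when only the full-length Krt10 transcript was kept and 336 TPM with the coding Krt14 transcript alone. The log2 ratio of type I over type II keratins, 1.08, was 0.95 with M4, 0.55 with counts scaled to gene counts but not divided by length, 0.91 without Krt10, 0.94 with the full-length Krt10 transcript alone and 0.91 with the coding Krt14 transcript alone. Without division by length, the log2 ratio of Krt14 over Krt5 was 0.020 in place of 0.58 and that of Krt18 over Krt8 was -0.52 in place of -0.05. With the coding Krt14 transcript alone, Krt14 over Krt5 was 0.058. With a pseudocount of 0.1, 3 keratins (Krt23, Krt4 and Krt79, all higher in replicate 2) were past a log2 ratio of 1 between the pools, where a pseudocount of 1 gave 0, against 3.38% of all protein-coding genes. Leaving out 1 replicate gave 10 to 11 detected keratins, 361 to 364 TPM, a type I over type II ratio of 1.06 to 1.10, a Krt14 over Krt5 ratio of 0.45 to 0.71, a Krt18 over Krt8 ratio of -0.16 to 0.06 and a simple over basal ratio of -1.18 to -0.90, all ratios on the log2 scale. Spike-in scaling moved the median log2 ratio of all detected genes to -0.13, and Krt5 then stood at -0.00 in place of 0.13. Krt7, at -0.14, stood at 0.01 with counts scaled to gene counts and at 0.02 with TMM scaling. For single keratins, 55 of 60 alternative values lay near the main log2 ratio. Near means no further from it than the limits of the counting interval lie from the interval's centre. The other 5 all came from spike-in scaling, for Krt14, Krt15, Krt5, Krt8 and Krt18. FPKM and scaled counts were not run for the summed TPM, since they are in another unit. Leaving out Krt10, keeping 1 transcript of Krt10 or Krt14 and the release M4 ratio of Krt10 over Krt1 were chosen after seeing the data. Depth limits the members with few counts, whose intervals are wide.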
